A study of Homo sapiens with 2 samples.

Results

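The ABC transporter genes were taken as the gene names made of ABC, a subfamily letter from A to G and a number. Of 26228 gene names listed in both libraries, 46 met this rule, and no such name was listed in only 1 of them. RNA was compared between PLC cells, a human liver cancer line, that carried the empty vector (EV, genotype WT) and PLC cells with PRSS35 over-expression (PRSS35). Both are puromycin-selected lines made with pCDH lentivirus, and each gave 1 library. Whether a line is 1 clone or a pool of infected cells is not stated. The comparison asks which transcripts differ when the secreted protease PRSS35 is over-expressed. With 1 library per condition no difference has a replicate check, and no test or p-value is given.

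ABC proteins use ATP, bound at paired cytosolic domains, to move lipids, bile constituents, drugs and metal or vitamin cofactors across membranes. Long members carry both ATP-binding domains in a single chain, short members carry 1 and work as dimers, and subfamilies E and F have no membrane part and act on ribosomes. In hepatocytes, members at the bile canaliculus export bile salts, phospholipid, sterols and conjugated drugs into bile, while others serve HDL formation, peroxisomes, mitochondria and lysosomes.

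Values are FPKM, fragment numbers scaled for transcript length and library size. Cufflinks gives a lower and an upper bound around each value. The bounds cover counting and read assignment within a library and leave out differences between cultures. A gene was called expressed at a mean of at least 1 FPKM over both libraries, and a difference is described as separate when the bounds of the libraries did not overlap. For expressed members the bounds imply between 36.5 and 2197 fragments in EV and between 48.0 and 1929 in PRSS35. PRSS35 itself had 0.643 FPKM in EV and 1836 FPKM in PRSS35 cells. All 9 hepatocyte markers were expressed, with ALB at 4.05 and 5.21 FPKM and SERPINA1 at 2528 and 4239 FPKM in EV and PRSS35, and 6 of the 9 were higher and 1 was lower in PRSS35 with separate bounds, where 25.2% of all expressed genes were higher and 15.5% lower. The part of this in the ABC values was not tested. Of 7 leukocyte, endothelial and fibroblast markers, 6 were under 1 FPKM, and CD68, at 297.3 and 277.9 FPKM, was read from a row joined with a neighbouring gene.

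Transcripts of 23 of the 46 members were expressed in PLC cells by the threshold of 1 FPKM. In EV, summed levels were 152.5 FPKM for the ATPases without membrane domains, against 9.99 FPKM for canalicular exporters, and of the canalicular exporters only ABCC2 and ABCG2 reached 1 FPKM. With PRSS35, ABCD3, ABCD4, ABCC2 and ABCA1 were higher, at 1.34 to 1.75 times their EV level, and ABCG2 was lower, at 0.795 times its EV level, except that it exceeded EV after scaling to the summed FPKM of all loci. That scaling multiplies every gene by the same factor, and every gene called lower here is lower on the deposited scale. In a bulk library, fewer cells expressing a gene and less RNA per cell cannot be told apart. No expressed member differed by 2-fold or more, on the scale log2((FPKM in PRSS35 + 1)/(FPKM in EV + 1)). Among all 11118 expressed genes, 2.73% were higher and 2.48% lower by 2-fold. Bounds were separate upward for 4 of 23 expressed members, or 17.4%, where 25.2% of all expressed genes were, and downward for 2, or 8.70%, where 15.5% of all were. In either direction this was 26.1% of the expressed members and 40.7% of all expressed genes.

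The summed FPKM of the 23 expressed members was 432.3 in EV and 431.1 in PRSS35. The family's median log2 change was -0.00 and that of all expressed genes was 0.06. Of the expressed members 11 had a value above 0 and 12 below 0, while 60.2% of all expressed genes lay above 0. The change was -0.24 for ABCG2 and reached 0.65 for ABCD4, and 16 of the 23 stayed within 0.15 of 0 on the log2 scale, compared with 44.03% of all expressed genes. The limit of 0.15 was not among the planned results and was not varied. Without the added 1 FPKM, ABCB10, ABCC4, ABCC5 and ABCC6 lay beyond it, at 0.187, 0.178, -0.152 and 0.1503. The share of all expressed genes was not computed without it.

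**Figure D1:**
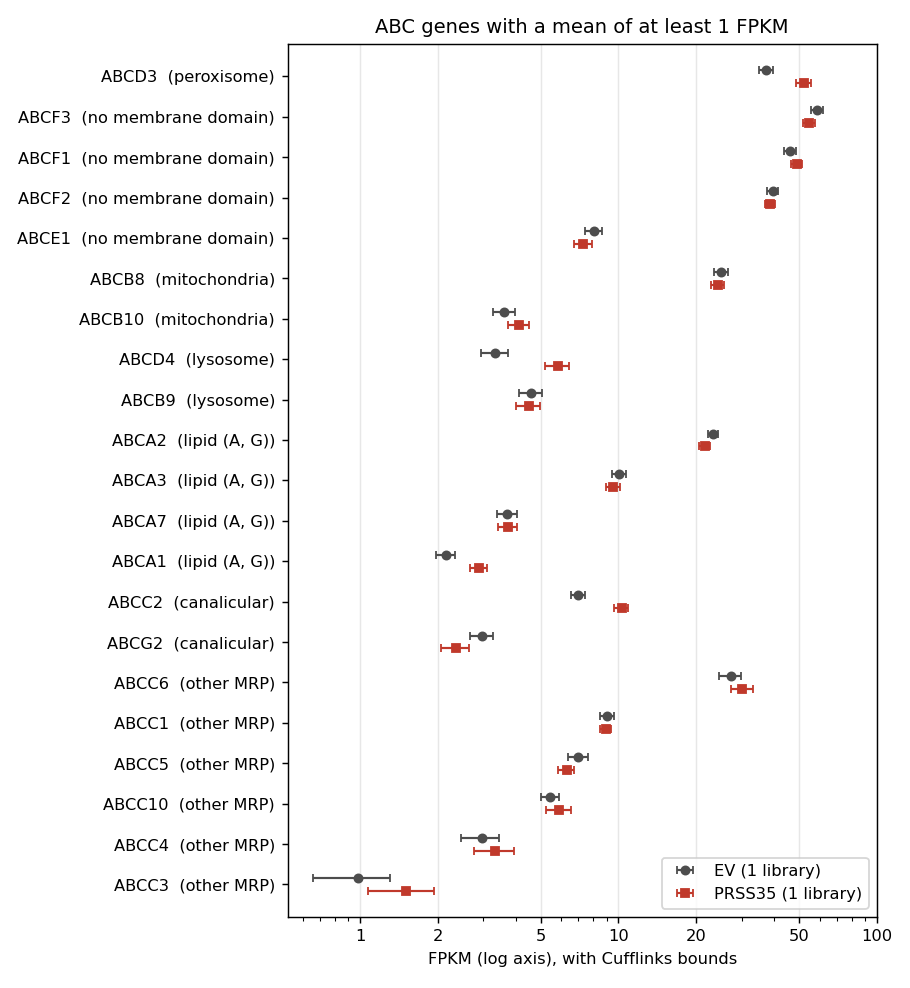
FPKM of 21 expressed ABC genes in the EV library (circles) and the PRSS35 library (squares) on a log axis, ordered by role, with bars for the Cufflinks bounds. Levels span ABCC3, at 0.983 and 1.503 FPKM, to ABCF3, at 58.7 and 54.8 FPKM, and the markers of most genes lie close together.

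ABCD3, also called PMP70, a peroxisomal importer of branched-chain substrates and bile acid precursors, lies at chr1:94883933-94984219 (hg19). Its level was 37.4 FPKM (bounds 34.9 to 39.8) in EV and 52.1 FPKM (bounds 48.8 to 55.4) in PRSS35. The bounds did not overlap, and the PRSS35 to EV ratio was 1.39 (interval 1.28 to 1.53). ABCD2, also peroxisomal, had 0.0126 FPKM in EV and was listed at 0 in PRSS35.

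Lysosomal members differed from each other. ABCD4, which takes part in the release of vitamin B12 from lysosomes, lies at chr14:74751980-74769767 and had 3.33 FPKM (bounds 2.93 to 3.74) in EV and 5.82 FPKM (bounds 5.20 to 6.44) in PRSS35. Its ratio of 1.75 (interval 1.49 to 2.05) was the highest among expressed members. ABCB9, a lysosomal peptide transporter, had 4.58 FPKM (bounds 4.12 to 5.05) in EV and 4.49 FPKM (bounds 4.02 to 4.95) in PRSS35, with overlapping bounds. In GENCODE, 24.6% of the exonic bases of ABCB9 overlap exons of genes on the opposite strand, and strand-specific counting is not stated, so reads there may belong to either gene.

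Canalicular exporters were low or not detected apart from ABCC2. ABCC2, or MRP2, the exporter of bilirubin glucuronides and other conjugates, lies at chr10:101542355-101612322 and had 6.98 FPKM (bounds 6.52 to 7.44) in EV and 10.3 FPKM (bounds 9.63 to 10.9) in PRSS35. Its ratio was 1.47 (interval 1.34 to 1.61), with separate bounds. ABCG2, which exports urate and many drugs, lies at chr4:89011351-89152474 and had 2.96 FPKM (bounds 2.65 to 3.27) in EV and 2.35 FPKM (bounds 2.06 to 2.64) in PRSS35. Its ratio was 0.795 (interval 0.677 to 0.934), but its bounds overlapped after scaling to the sum of named loci, and the direction turned after scaling to the sum of all loci. The level of ABCC2 was 2.36 times that of ABCG2 in EV (interval 2.09 to 2.67) and 4.37 times in PRSS35 (interval 3.80 to 5.02). ABCB1, the multidrug exporter P-glycoprotein, had 0.0501 FPKM in EV and 0.0357 FPKM in PRSS35, for which the bounds imply 7 and 5 fragments. ABCB4, which exports phosphatidylcholine, reached 0.00894 FPKM in PRSS35 and was listed at 0 in EV. ABCB11, the bile salt export pump, was listed at 0 in both libraries.

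Sterol and phospholipid transporters of subfamilies A and G had 4 expressed members of 16. ABCA1, which loads cholesterol and phospholipid onto apolipoprotein A-I, lies at chr9:107543284-107690527. It had 2.14 FPKM (bounds 1.96 to 2.32) in EV and 2.88 FPKM (bounds 2.66 to 3.10) in PRSS35, a ratio of 1.34 (interval 1.201 to 1.506) with separate bounds. ABCA2, an endosomal lipid transporter, was the most abundant of the class, at 23.3 FPKM (bounds 22.3 to 24.3) in EV and 21.6 FPKM (bounds 20.5 to 22.7) in PRSS35. Its bounds overlapped, although the interval of its ratio, 0.868 to 0.989, lay below 1. ABCA3, which fills the lamellar bodies of lung cells with surfactant lipid, had 10.1 FPKM (bounds 9.44 to 10.7) in EV and 9.54 FPKM (bounds 8.98 to 10.1) in PRSS35. ABCA7 had 3.72 FPKM (bounds 3.38 to 4.06) in EV and 3.74 FPKM (bounds 3.43 to 4.06) in PRSS35. Of these 4, ABCA1 alone had separate bounds. ABCG5 and ABCG8, which together secrete sterols into bile, were both listed at 0 in both libraries.

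**Figure D2:**
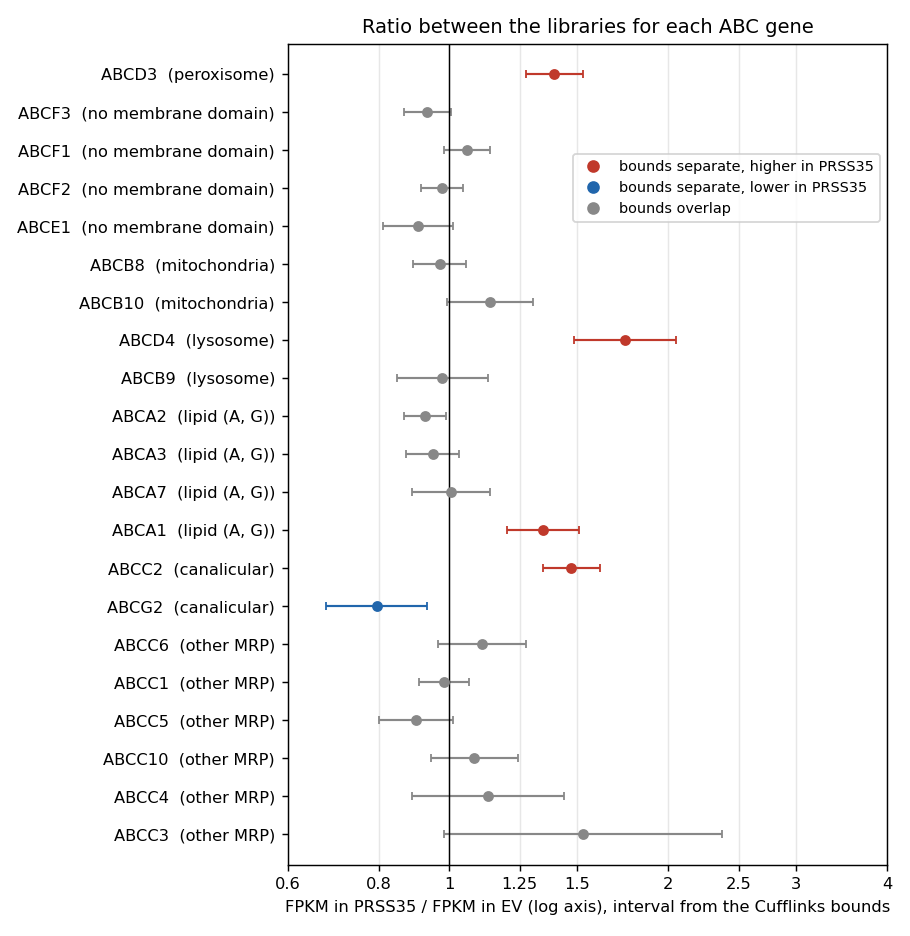
Ratio of FPKM in PRSS35 to FPKM in EV for 21 expressed ABC genes on a log axis, with intervals combined from the Cufflinks bounds of both libraries (1 library each). ABCD3, ABCD4, ABCC2 and ABCA1 lie to the right of 1 with separate bounds, and ABCG2 to the left, a direction that turned after scaling to the summed FPKM of all loci.

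The ATPases without membrane domains include ribosome recycling and initiation factors and had overlapping bounds throughout. ABCF3 had 58.7 FPKM (bounds 55.7 to 61.7) in EV and 54.8 FPKM (bounds 51.9 to 57.7) in PRSS35. ABCF1, which associates with the initiation factor eIF2, had 46.2 FPKM (bounds 43.9 to 48.6) and 48.9 FPKM (bounds 46.4 to 51.5). In each library 6 alternate-haplotype rows of ABCF1 were left out. Any reads assigned to those rows are missing from its values and from the summed level of the class. ABCF2 had 39.6 FPKM (bounds 37.7 to 41.5) in EV and 38.7 FPKM (bounds 36.9 to 40.5) in PRSS35. ABCE1, which splits ribosomes after termination, was the lowest of the class, at 8.04 FPKM (bounds 7.42 to 8.65) and 7.29 FPKM (bounds 6.71 to 7.87). For these 4 genes the ratios ran from 0.907 for ABCE1 to 1.06 for ABCF1. Reads of ABCE1 may be shared, as 11.7% of the 50-base stretches of its transcript occur in transcripts of other GENCODE genes. For ABCF2 this share was 41.8%, and the genes that share them include a read-through gene annotated at the same locus.

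Mitochondrial members showed no separate bounds. ABCB8 had 25.0 FPKM (bounds 23.5 to 26.5) in EV and 24.3 FPKM (bounds 22.9 to 25.6) in PRSS35. ABCB10, needed for haem synthesis, had 3.61 FPKM (bounds 3.26 to 3.97) and 4.11 FPKM (bounds 3.73 to 4.496). ABCB6, a porphyrin transporter, fell short of 1 FPKM, at 0.429 in EV and 0.255 in PRSS35 with overlapping bounds. Its level is uncertain, because 90.8% of the 50-base stretches of its transcript also occur in another gene annotated on the same strand of the locus.

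Exporters of the multidrug resistance protein type other than ABCC2 include 6 expressed members, and none had separate bounds. ABCC6, which mediates ATP release from hepatocytes, was the most abundant, at 27.2 FPKM (bounds 24.5 to 29.9) in EV and 30.1 FPKM (bounds 27.3 to 33.0) in PRSS35. Its level is uncertain, because 17.3% of the 50-base stretches of its transcript also occur in its pseudogenes ABCC6P1 and ABCC6P2. ABCC1, the exporter of glutathione conjugates, had 9.04 FPKM (bounds 8.47 to 9.61) in EV and 8.91 FPKM (bounds 8.49 to 9.34) in PRSS35. ABCC5 had 6.99 FPKM (bounds 6.35 to 7.63) in EV and 6.29 FPKM (bounds 5.83 to 6.76) in PRSS35, and ABCC10 had 5.44 FPKM (bounds 4.99 to 5.89) and 5.90 FPKM (bounds 5.24 to 6.55). For these 3 genes the values of the libraries, with 1 FPKM added to each, lay within 0.15 of each other on the log2 scale. ABCC4, an exporter of cyclic nucleotides and bile acids at the basolateral membrane, had 2.95 FPKM (bounds 2.47 to 3.44) in EV and 3.34 FPKM (bounds 2.75 to 3.93) in PRSS35. ABCC3, which also works at the basolateral membrane and exports glucuronides to blood, had 0.983 FPKM (bounds 0.657 to 1.31) in EV and 1.503 FPKM (bounds 1.07 to 1.94) in PRSS35. Its ratio of 1.53 was larger than that of ABCC2, but its interval of 0.985 to 2.37 rests on an implied 36.5 and 48.0 fragments and includes 1.

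The other 23 members stayed under a mean of 1 FPKM. In 9 of them, which are ABCA6, ABCA8, ABCA9, ABCB5, ABCB11, ABCC12, ABCC13, ABCG5 and ABCG8, both libraries listed 0. Of these 9, the rows of ABCA8, ABCB5 and ABCG5 carry the identifier of an assembled locus in both libraries. In all, 215 expressed genes are listed at 0 in 1 library, so that a listed 0 can be a missing estimate and is not read as absence. A further 4 members were listed at 0 in 1 library and at no more than 0.0137 FPKM in the other. The 10 members above 0 in both libraries ranged from 0.00188 to 0.642 FPKM. ABCG4 was the highest of these, at 0.448 FPKM (bounds 0.316 to 0.580) in EV and 0.642 FPKM (bounds 0.486 to 0.799) in PRSS35. ABCC8 and ABCC9, the sulfonylurea receptor subunits of potassium channels, had 0.0137 and 0.0639 FPKM in EV, and in PRSS35 ABCC8 was listed at 0 and ABCC9 had 0.0617 FPKM. ABCA5 and ABCA10 lie side by side on chromosome 17 (joined row at chr17:67144148-67323323) and were joined into a single row in both libraries, so their values cannot be separated. That row had 0.137 FPKM (bounds 0.0864 to 0.187) in EV and 0.0389 FPKM (bounds 0.0105 to 0.0672) in PRSS35, a ratio of 0.284 (interval 0.126 to 0.643) that rests on an implied 29.5 and 7.53 fragments. It was the only row under 1 FPKM with separate bounds.

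**Figure D3:**
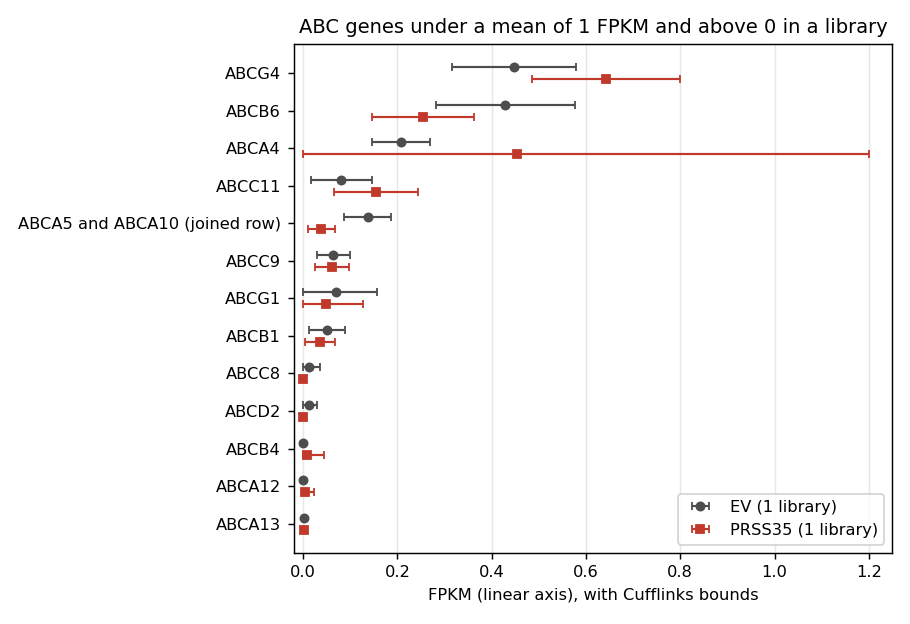
FPKM on a linear axis, with Cufflinks bounds, of the ABC genes under a mean of 1 FPKM that were above 0 in at least 1 library, in EV (circles) and PRSS35 (squares). Apart from the joined row of ABCA5 and ABCA10, at 0.137 and 0.0389 FPKM, the bounds of the libraries overlap or touch 0.

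The row structure differed among members. For 16 of the 23 expressed members the rows of both libraries were assembled from the reads, for 4 the EV row alone was assembled, and 3, ABCB10 and ABCE1 among them, kept their annotated row in both. Assembly can change the transcript lengths by which FPKM is scaled. All 6 expressed members with separate bounds had an assembled row in at least 1 library, and in both for all of them but ABCD3, which kept its annotated row in PRSS35. None of the 3 members annotated in both libraries had separate bounds, and the part of assembly in the differences was not tested.

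Size also varied within the family, which was divided at 1000 codons after the values were seen. The annotated coding sequences ran from 599 codons for ABCE1 to 5058 for ABCA13. Of 18 members under 1000 codons, which are the short transporters and the ATPases of subfamilies E and F, 12 were expressed, and of 27 longer coding members 11 were. Short members made up 77.1% of the summed FPKM of the family in EV and 75.8% in PRSS35. ABCC13 is annotated as a pseudogene and was listed at 0 in both libraries.

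**Figure D4:**
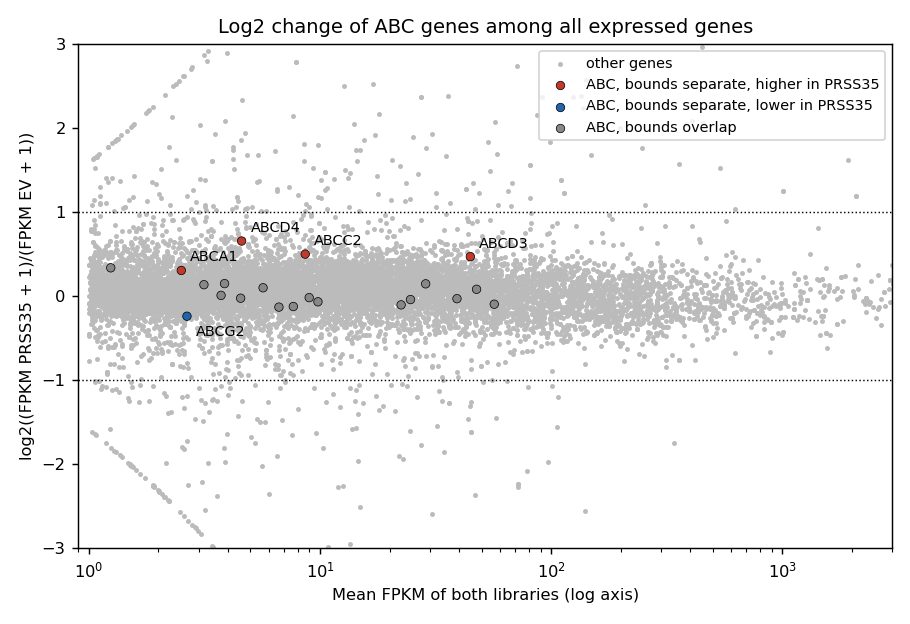
Log2 change between PRSS35 and EV against mean FPKM (log axis) for expressed genes in grey and 21 expressed ABC genes as larger points, with 2-fold marked by dotted lines; 243 genes lie outside the axes. The ABC points drawn lie between the dotted lines, from -0.24 for ABCG2, which was above 0 after scaling to the summed FPKM of all loci, to 0.65 for ABCD4.

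Promoters were read from RefSeq (GRCh38.p14), which gave a window for 35 of the 46 members. Entries were missing for 11, among them ABCA4, ABCA8, ABCB4, ABCB5, ABCC1, ABCC3, ABCC8, ABCC13 and ABCG1. In the 250 bases before the start site, taking for each gene the window with the most CpG dinucleotides, the median was 26 CpG for 19 expressed members, 7.5 for 16 members under 1 FPKM and 12 for all 27305 genes. Above the median of all genes, as were 49.8% of all genes, were 18 of the 19 expressed members and 5 of the 16 others. The share for expressed genes at large was not computed, so this is not read as a trait of the family. The expressed exception was ABCC2, with 1 CpG. Those 5 others were ABCA5, ABCB6, ABCC9, ABCC11 and ABCG4. The GC box GGGCGG, searched on both strands, was found in 73.7% of the expressed members, 37.5% of the others and 44.9% of all genes. CCAAT, on both strands, was found in 15.8%, 31.2% and 32.4%, and TATAAA in 15.8%, 12.5% and 10.7%. The palindrome CACGTG was found in 15.8%, 18.8% and 6.63%, which for the expressed members is 3 of 19 genes. TGACNNNGC, on both strands, was found in 21.1%, 12.5% and 11.1%.

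**Figure D5:**
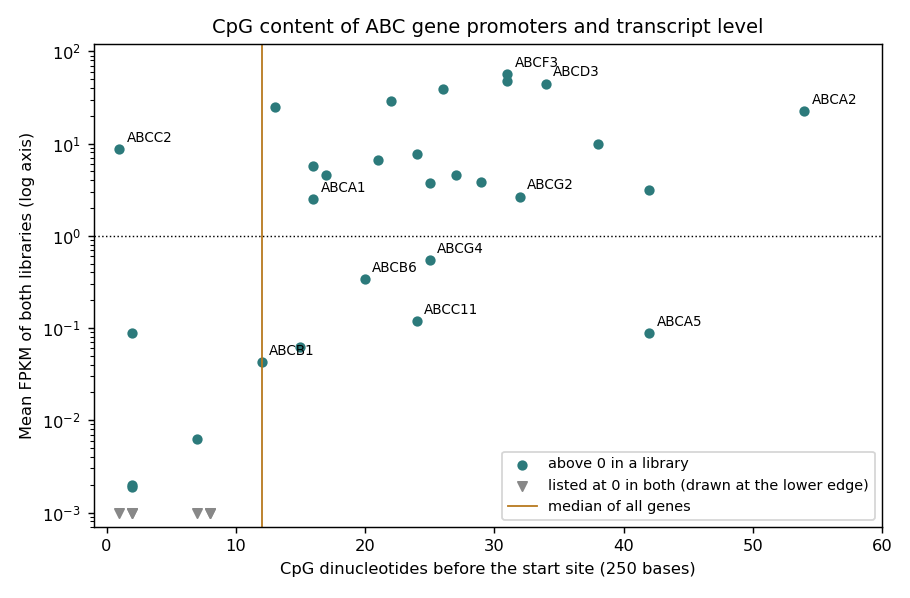
Mean FPKM of both libraries (log axis) against the number of CpG dinucleotides in the 250 bases before the start site for the 35 ABC genes with a promoter window; the vertical line is the median of all genes, 12, and the dotted line is 1 FPKM. All expressed members but ABCC2, with 1 CpG, lie to the right of the vertical line.

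The 4 members that were higher in PRSS35 with separate bounds are shown by the last 150 bases before their RefSeq start sites. They are printed 5′ to 3′ on the strand of the gene, because they moved in the same direction and differ in promoter type. Each sequence matched GRCh37 at a single place on its chromosome, at chr9:107690437-107690586 (minus strand) for ABCA1, chr10:101542247-101542396 (plus) for ABCC2, chr1:94883795-94883944 (plus) for ABCD3 and chr14:74769638-74769787 (minus) for ABCD4. The RefSeq starts differ from the deposited loci, and each stretch reaches into the locus given above for its gene. Most of the ABCD4 stretch also lies inside the GENCODE gene, which ends at 74769758, so it is not all upstream sequence by that annotation. Capitals mark the GC box, the CCAAT box, the TATAAA box and the CACGTG palindrome named above, on either strand.
ABCA1: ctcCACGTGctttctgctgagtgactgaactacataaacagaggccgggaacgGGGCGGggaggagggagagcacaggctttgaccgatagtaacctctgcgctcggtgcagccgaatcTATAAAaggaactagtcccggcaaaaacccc
ABCC2: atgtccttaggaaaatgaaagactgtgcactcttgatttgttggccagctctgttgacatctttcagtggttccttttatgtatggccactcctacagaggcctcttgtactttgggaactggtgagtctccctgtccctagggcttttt
ABCD3: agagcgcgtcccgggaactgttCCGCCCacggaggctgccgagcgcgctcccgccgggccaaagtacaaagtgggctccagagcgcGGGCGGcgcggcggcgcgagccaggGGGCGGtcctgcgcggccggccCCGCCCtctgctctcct
ABCD4: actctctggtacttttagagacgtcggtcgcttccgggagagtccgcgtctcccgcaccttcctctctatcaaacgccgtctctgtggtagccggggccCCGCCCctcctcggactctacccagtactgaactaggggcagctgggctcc
GC content was 77.3% with 4 GC boxes in the ABCD3 sequence and 46.0% with none of these motifs in that of ABCC2. The ABCA1 sequence held 1 GC box, 1 CACGTG and 1 TATAAA, and that of ABCD4 held 1 GC box. The 4 printed stretches therefore share no single one of the motifs marked. A match is a description of the letters and not a binding site.

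ABCG5 and ABCG8 are transcribed away from each other, and the 131 bases between their RefSeq start sites are shown because both genes were listed at 0 in both libraries. In GENCODE these genes overlap, as ABCG8 starts at 44059081 and ABCG5 ends at 44066004. The printed stretch lies at chr2:44065979-44066109 of GRCh37, is read on the strand of ABCG8, and held 5 CpG and none of the motifs marked above.
ABCG5-ABCG8: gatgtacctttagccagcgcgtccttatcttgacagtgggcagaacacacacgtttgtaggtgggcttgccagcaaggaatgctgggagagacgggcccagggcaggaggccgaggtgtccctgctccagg

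Some ABC proteins carry other symbols and were outside the rule. TAP1 and TAP2, the peptide transporter of antigen presentation, were both higher in PRSS35 with separate bounds, at 17.6 and 20.7 FPKM for TAP1 and 15.6 and 18.0 FPKM for TAP2 in EV and PRSS35. CFTR was listed at 0 in both libraries.

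Transcriptional regulators of ABC genes were partly absent from the expressed set. Of 14 listed, 11 were expressed, 4 were higher and 2 lower with separate bounds, and none differed by 2-fold. For comparison, 25.2% of all expressed genes were higher and 15.5% lower with separate bounds. NR1H4, the bile acid receptor FXR, and NR1I3, the xenobiotic receptor CAR, were listed at 0 in both libraries, and NR1I2, the xenobiotic receptor PXR, had 0.0129 FPKM in EV and was listed at 0 in PRSS35. The oxysterol receptors NR1H2, at 74.3 and 72.5 FPKM, and NR1H3, at 31.2 and 27.0 FPKM in EV and PRSS35, were expressed, and the bounds were separate for NR1H3. SREBF1, a regulator of lipid synthesis, was higher, with 61.4 FPKM (bounds 58.9 to 63.9) in EV and 92.1 FPKM (bounds 88.7 to 95.4) in PRSS35, where its row was joined with a neighbour. HNF4A, a hepatocyte factor, was higher, at 41.2 and 47.7 FPKM with separate bounds.

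Partner genes of the ABC proteins were measured for 25 names, of which 23 were expressed, 9 were higher and 4 were lower with separate bounds, and none differed by 2-fold. The shares over all expressed genes were again 25.2% higher and 15.5% lower. APOA1, whose protein accepts lipid from ABCA1, had 576.2 FPKM in EV and 493.6 FPKM in PRSS35, lower with separate bounds on the deposited scale. LCAT, which esterifies cholesterol on HDL, was also lower, at 16.8 and 14.4 FPKM in a joined row. APOE was the most abundant partner, at 1538 and 1647 FPKM with overlapping bounds, although the interval of its ratio, 1.008 to 1.136, lay above 1. ATP8B1, a canalicular phospholipid flippase, had 3.51 and 4.51 FPKM, higher with separate bounds. The membrane anchors PDZK1, at 10.9 and 13.1 FPKM, and EZR, at 44.9 and 56.2 FPKM, were also higher with separate bounds, while SLC9A3R1, the most abundant anchor, had 598.2 and 616.6 FPKM in a joined row with overlapping bounds. PEX19, which brings proteins such as ABCD3 to the peroxisomal membrane, had 13.3 FPKM in EV and 17.1 FPKM in PRSS35 with separate bounds. Its ratio was 1.28 (interval 1.17 to 1.41). The bounds of its partner PEX3, at 3.68 and 4.55 FPKM, overlapped. The PEX3 ratio was close to that of PEX19, at 1.24, and its interval of 1.06 to 1.45 lay above 1. Of the 5 mitochondrial iron-sulfur and haem genes, NFS1 (21.98 and 25.9 FPKM), GLRX5 (127.2 and 151.8 FPKM) and FECH (4.32 and 5.24 FPKM) were higher with separate bounds. Among the ribosome recycling and stress genes, PELO, which works with ABCE1 on stalled ribosomes, was higher, at 12.7 and 16.2 FPKM in a joined row, and the release factor ETF1 was lower, at 21.8 and 19.2 FPKM. GCN1, the most abundant of that list, had 30.8 and 28.7 FPKM with overlapping bounds, although the interval of its ratio, 0.879 to 0.993, lay below 1. TAPBP, the tapasin that links TAP to class I molecules, was lower, at 63.6 and 46.4 FPKM in a joined row, and B2M, the light chain of those molecules, was higher, at 131.8 and 142.0 FPKM. KCNJ11, a channel pore that pairs with ABCC8, had 3.06 and 2.49 FPKM with overlapping bounds.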

How the data were processed

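Total RNA was extracted from EV and PRSS35 PLC cells, and 1 library per group, made with an NEBNext Ultra RNA kit, was sequenced. The deposited values are FPKM per locus and their lower and upper bounds, which the authors made by aligning reads to hg19 with TopHat2 2.1.0 and by Cufflinks 2.2.1 (the submitters' processing notes name Cuffdiff 2.2.1). Annotation release and options are not given in the sources used here. Of the deposited loci, 30971 were in EV and 30543 in PRSS35.

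Values were matched by gene name on the primary chromosomes, each name of a joined row took that row's FPKM, and rows sharing a name were summed, with bounds combined in quadrature. The 6 alternate-haplotype rows of ABCF1 were left out. Log2 changes used a pseudocount of 1 FPKM, which understates changes of low genes. Intervals of ratios were combined from both bounds on the log scale. Fragments implied by the bounds assume Poisson error with the upper bound 2 standard errors above the value, and are not counts of reads. Depth limits low members most. Library totals were not derived. Structures came from GENCODE v44lift37 on GRCh37, which is hg19, and all 46 members overlapped it in position.

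Members, roles and lists were chosen with earlier results of these data known. Expressed members are named, except some that enter the counts and are not reported here by name. Of the other lists, members with separate bounds (at most 4 a list) and the highest member were to be named. Some further genes were named after their values were seen. Alternatives were other pseudocounts, scalings, filters and thresholds, and joined or assembled rows left out. Python 3.11.15, numpy 2.4.6, pandas 2.3.3 and matplotlib 3.10.9 were used.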

Additional observations from a re-analysis of the deposited data

How the results depend on the processing

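No ABC member was called lower by 2-fold in any setting, and none was called higher by 2-fold except under the settings named here. With 1 FPKM added, a member under 1 FPKM in EV cannot be called lower by 2-fold, even at 0 in PRSS35. The run without a filter could therefore not call the joined row of ABCA5 and ABCA10, whose ratio without the added 1 FPKM was 0.284. Other pseudocounts were run only for expressed members. Scaling to the summed FPKM of all loci moved the median log2 change from 0.06 to 0.68 for expressed genes at large and from -0.00 to 0.64 for the members. It put 3 members past 2-fold higher (ABCC2, ABCD3 and ABCD4), turned ABCG2 to 0.28, and, with bounds scaled too, made 23 members higher and 0 lower with separate bounds. The sum was 2469030 in EV and 1508529 in PRSS35, of which named loci held 856880 and 831520. With the sum over named loci the separate bounds were 4 higher and 1 lower, ABCG2 being lost. With upper quartile scaling they were 4 higher and 4 lower, ABCA2 and ABCF3 being added. These last 3 settings for bounds were chosen after seeing the data. At a 1.5-fold threshold 1 member, ABCD4, was higher. Without a filter 46 members entered and 4 were lower with separate bounds, and at a mean of at least 5 FPKM 15 members entered, 2 higher and 1 lower. Among members above 0 and annotated in both libraries, 3 were left, with 0 higher and 0 lower. With 5 FPKM as pseudocount, log2 changes moved beyond their interval for 2 members. Except under the all-loci sum, ABCA1, ABCC2, ABCD3, ABCD4 and ABCG2 kept their direction in every scaling and pseudocount run, with log2 changes of 0.38 to 0.79 for ABCD4 and -0.32 to -0.11 for ABCG2. No paired analysis was possible because EV and PRSS35 were each sequenced once. PRSS35 and any other property of the cultures cannot be told apart.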

Other observations

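Pseudogenes and a larger transporter family gave values outside the comparisons above. ABCC6P1 had 8.62 FPKM in EV and 2.39 FPKM in PRSS35, and ABCC6P2 had 18.7 and 21.1 FPKM. Both share sequence with ABCC6, so these values are uncertain. ABCA17P had 3.44 and 4.29 FPKM. Of 334 names of the solute carrier (SLC) family, 162 were expressed (48.5%), compared with 23 of 46 ABC names and 42.4% of all names. The median log2 change of expressed SLC genes was 0.10, with 46 higher (28.4%) and 23 lower (14.2%) by separate bounds, and 8 higher and 3 lower by 2-fold. Over all expressed genes the median was 0.06, with 25.2% higher and 15.5% lower by separate bounds and 2.73% higher and 2.48% lower by 2-fold. These shares are descriptions of 2 libraries, and the difference between the families was not tested.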
